A study of Mus musculus with 8 samples.

Results

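A set of 43 mouse genes of the interferon response and of antigen processing was followed in 3T3-L1 cells treated with conditioned medium. Each gene was represented by its brightest non-control probe, named through the probe's RefSeq transcript or its gene name, and was kept if, in 1 or more groups, the scanner software marked that probe as well above background on each of the 2 arrays. A probe was matched for 41 of the 43 genes, and all 41 were well above background on all 8 arrays, so the requirement removed none of them. Mx1 and Mx2 were matched to no probe and were not analysed here. The 41 genes were tested among 13782 named genes, or 25801 features with the unnamed probes included.

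3T3-L1 is a line of mouse preadipocytes, fibroblasts that store fat once differentiated. The cells of all 4 groups were kept for 1 week in adipogenic medium and then treated with the supernatant of human HL-60 cells, a myeloid leukaemia line, diluted 2-fold. The HL-60 cells had been cultured in Opti medium for 5 days with 30 nM PMA, a phorbol ester that drives them towards a macrophage state. In the control groups the HL-60 cells carried a mock vector, and in the knockdown groups the ubiquitin-specific protease USP2 was knocked down in them. Treatment lasted 3 h or 6 h, and each of the 4 groups had 2 arrays, labelled as biological replicates. The knockdown was made in human cells whose RNA was not hybridised, so it could not be checked on these arrays, and no cells without supernatant were analysed here. Nothing says whether the replicates came from separate batches of supernatant, so the p-values reflect no more than the spread among the arrays used.

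Interferons bind cell surface receptors (Ifnar1 with Ifnar2 for type I, Ifngr1 with Ifngr2 for interferon gamma) whose associated Janus kinases activate STAT proteins. A complex that holds Stat2 and Irf9 binds the interferon-stimulated response element (ISRE) in promoters, and STAT pairs bind the gamma-activated STAT site. The target genes include antiviral effectors, sensors of viral RNA, large GTPases that attack intracellular pathogens, and the proteasome subunits and transporters that load peptides onto MHC class I. Fibroblasts and fat cells carry these receptors and can mount the response.

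Promoter windows from RefSeq (build GRCm38.p6), each running from 250 bases before to 50 bases after a transcription start, were found for 34 of the 41 genes. They were searched on both strands for the ISRE core (GAAA, any 2 bases, GAAA) and the STAT site (TTC, any 3 bases, GAA). A short NF-kB pattern (GGG, A or G, any base, C or T, C or T, CC) was also searched. The ISRE core was present for 18 of the 34 genes, or 52.9%, against 3.99% of the 27025 genes with a window. By role, it was present for 5 of 5 interferon-induced GTPases with a window and for 8 of 15 antiviral effectors, but for 1 of 6 antigen processing genes, B2m. The STAT site was present for 11 of the 34 genes, or 32.4%, against 9.55% of all genes. The NF-kB consensus was present for 1, Irf1, or 2.94%, against 2884 of all 27025 genes. An ISRE core and a STAT site shared bases in 2 windows of these genes. A match describes letters in a window and does not show binding.

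The 250 bases before the start are shown for 5 genes whose ISRE core lies there and whose signals took different courses: Rsad2, Ifit1 and Irgm1 fell between 3 and 6 h, Gbp3 rose, and B2m passed no test. Capitals mark the ISRE core on either strand, written 5′ to 3′ along the gene. The windows lie at chr12:26456453-26456702 on the minus strand for Rsad2, chr19:34640639-34640888 on the plus strand for Ifit1, and chr11:48871421-48871670 on the minus strand for Irgm1. Those of Gbp3 and B2m lie at chr3:142559794-142560043 and chr2:122147437-122147686, both on the plus strand.
Rsad2: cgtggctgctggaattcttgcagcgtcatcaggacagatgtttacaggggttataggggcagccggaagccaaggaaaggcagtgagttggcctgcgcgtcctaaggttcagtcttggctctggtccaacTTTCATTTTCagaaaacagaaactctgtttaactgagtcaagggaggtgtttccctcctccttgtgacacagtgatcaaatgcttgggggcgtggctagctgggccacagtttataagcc
Ifit1: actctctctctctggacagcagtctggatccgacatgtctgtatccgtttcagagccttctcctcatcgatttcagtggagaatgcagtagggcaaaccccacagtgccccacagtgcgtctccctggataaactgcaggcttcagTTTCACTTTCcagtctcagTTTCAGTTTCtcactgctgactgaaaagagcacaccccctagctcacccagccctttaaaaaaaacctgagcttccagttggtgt
Irgm1: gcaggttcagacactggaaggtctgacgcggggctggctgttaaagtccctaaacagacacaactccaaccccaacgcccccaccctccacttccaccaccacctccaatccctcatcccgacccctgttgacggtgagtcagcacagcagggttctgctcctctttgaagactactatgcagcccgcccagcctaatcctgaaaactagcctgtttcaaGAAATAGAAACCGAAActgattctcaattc
Gbp3: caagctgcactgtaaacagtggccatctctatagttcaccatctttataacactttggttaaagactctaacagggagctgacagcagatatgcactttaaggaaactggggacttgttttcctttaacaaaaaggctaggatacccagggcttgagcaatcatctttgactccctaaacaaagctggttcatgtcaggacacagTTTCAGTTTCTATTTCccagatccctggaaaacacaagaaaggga
B2m: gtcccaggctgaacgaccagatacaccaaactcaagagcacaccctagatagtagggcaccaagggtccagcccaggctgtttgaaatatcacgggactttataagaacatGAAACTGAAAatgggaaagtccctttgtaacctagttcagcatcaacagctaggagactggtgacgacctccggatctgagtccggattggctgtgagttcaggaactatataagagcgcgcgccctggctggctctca
Rsad2 and B2m held 1 core each, which began 120 and 139 bases before the start. Ifit1 held 2 separate cores, and Irgm1 and Gbp3 held 2 overlapping cores each, within the last 45 bases before the start. Over all roles, the median log2 change from 3 to 6 h in control supernatant was -0.02 for the 18 genes with a core. For the 16 without it was 0.00. With a core 5 rose and 7 fell, and without 5 rose and 5 fell, against 16.3% and 23.6% of all features. In knockdown supernatant the medians were -0.21 and 0.01. There 4 with a core rose and 8 fell, and 3 without rose and 5 fell, against 17.7% and 22.2%. Between supernatants the medians with and without a core were 0.11 and 0.01 at 3 h, and -0.03 and 0.00 at 6 h. Whether genes with and without a core differ was not tested.

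The arrays had 59305 non-control spots each, with 50.7% to 55.9% well above background and none saturated. Replicates correlated at 0.988 to 0.998, lowest in the control group at 6 h. Levels below are log2 signals relative to each array's 75th percentile, where 0 is that percentile and 1 unit is a doubling, and they are compared only within a gene. Differences are log2 differences with their standard error, from limma with 2 arrays a group, and a gene passed at a Benjamini-Hochberg adjusted p under 0.05 over all 25801 features. All arrays sat on 1 slide, with the 3 h arrays in row 1 and the 6 h arrays in row 2, controls in columns 1 and 2 and knockdowns in columns 3 and 4, so an effect of time cannot be told apart from one of the row, nor an effect of the supernatant from one of the column. Cell markers set against the adipocyte label were mixed: 10 of 18 adipocyte markers were tested, among them Pparg, Cebpa and Fabp4, while Adipoq, Cidec, Cd36, Lep, Cfd, Slc2a4 and Pck1 were well above background on no array, and all 12 preadipocyte and fibroblast markers were tested. Of 13 macrophage and leukocyte markers with a probe, 7 were tested and Ptprc, Adgre1, Spi1, Tyrobp and Itgax were among those well above background on no array.

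Between supernatants, the interferon and antigen processing genes differed little. No gene passed at 3 h (lowest adjusted p = 0.065, Rsad2) or at 6 h (lowest adjusted p = 0.133, Irgm2). Of all features, 0.225% were higher and 0.0194% lower at 3 h, and 1.6% were higher and 0.698% lower at 6 h. In the mean of both times, 1 of 41 passed, Rsad2, higher with knockdown supernatant, against 2.16% of all features higher and 0.965% lower, so the share of 1 in 41 is close to the background. At an unadjusted p under 0.05, 9 of the 41 were higher and 0 lower at 3 h, against 4.96% and 5.6% of all features. The 9 were the antiviral effectors Rsad2, Ifit1, Ifit3, Zbp1 and Cmpk2 and the GTPases Gbp2, Igtp, Irgm1 and Iigp1. At 6 h 0 were higher and 3 lower (Irgm2, Psmb8 and Psmb9), against 11.5% and 7.84%. In the mean of both times 6 were higher and 0 lower, against 10.5% and 9.17%.

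The median difference over the 41 genes was 0.08 at 3 h and -0.01 at 6 h, beside -0.02 and 0.00 over all features, and 31 of 41 were above 0 at 3 h and 20 at 6 h. Both knockdown arrays lay above both control arrays for 20 genes at 3 h and for 9 at 6 h, against 20.5% and 26% of all features. Both lay below for 4 and 10 genes, against 26.8% and 21.6%. Centring the arrays on their medians instead moved the median of all features by up to 0.19, to 0.06 at 3 h and 0.19 at 6 h, and the medians of the 41 genes to 0.15 and 0.17. The count above 0 depended on the scaling: it was 39 at 3 h and 38 at 6 h with this centring, and 23 and 24 with unscaled signals. The share of all features above 0 was not counted. External spike-in transcripts, 8 in number, had median differences of -0.08 at 3 h and 0.15 at 6 h. The difference of the knockdown effects, 6 h minus 3 h, passed for 0 genes, and also for 0 (0%) of all features in either direction. Its unadjusted p was under 0.05 for 1 higher (Irf1) and 6 lower (Rsad2, Ifit3, Oasl2, Cmpk2, Irgm2 and Iigp1), against 5.36% and 3.45%.

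**Figure D1:**
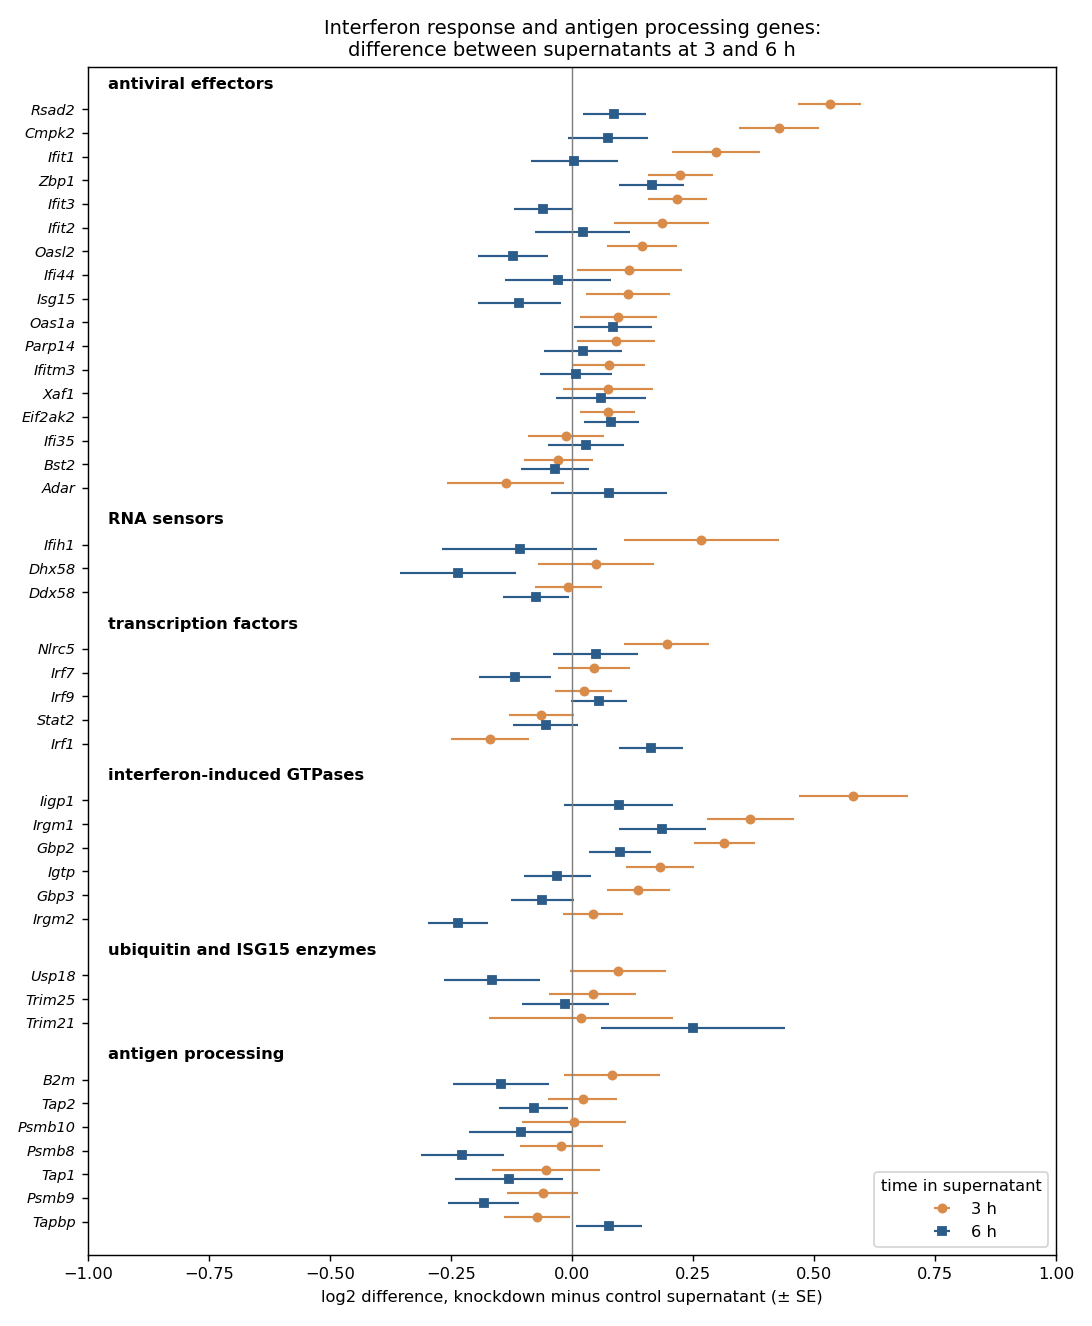
Log2 difference between knockdown and control supernatant for each of the 41 genes, ordered by role, at 3 h (circles) and 6 h (squares), with bars for the standard error from limma (2 arrays a group). Rsad2 and Iigp1 lie highest at 3 h, at 0.53 and 0.58, and the antigen processing genes lie between -0.23 and 0.08.

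More of these genes changed with time than differed between supernatants. From 3 to 6 h, 27 of 41 passed in control supernatant, 12 higher and 15 lower, against 16.3% and 23.6% of all features. In knockdown supernatant 25 passed, 9 higher and 16 lower, against 17.7% and 22.2%. The calls overlapped: 24 genes passed in both arms, all in the same direction, which is 88.9% of the calls with control and 96.0% of those with knockdown supernatant. This overlap was not counted over all features, so it cannot be read as a trait of these genes. The 9 that rose in both were Oas1a, Zbp1, Ifi44, Ddx58, Dhx58, Stat2, Irf7, Irf9 and Gbp3. The 15 that fell in both were Rsad2, Ifit1, Ifit2, Eif2ak2, Adar, Cmpk2, Parp14, Irf1, Nlrc5, Igtp, Irgm1, Irgm2, Iigp1, Trim21 and Trim25. Oasl2, Gbp2 and Psmb10 passed with control supernatant and Ifit3 with knockdown supernatant, and none of these 4 passed the test of the difference between arms. The other 13 passed in neither arm.

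The median change with time over the 41 genes was -0.02 with control and -0.14 with knockdown supernatant, beside -0.07 and -0.11 over all features. The spike-in transcripts had median changes of -0.35 and -0.09. With arrays centred on their medians, the medians of all features moved to -0.27 and -0.20, and the calls were 6 higher and 17 lower with control and 5 higher and 18 lower with knockdown supernatant. With no scaling they were 6 higher and 9 lower, and 7 higher and 8 lower. Over all 21 alternatives, 14 of the 27 calls with control supernatant and 13 of the 25 with knockdown supernatant passed in the same direction each time a value was obtained.

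**Figure D2:**
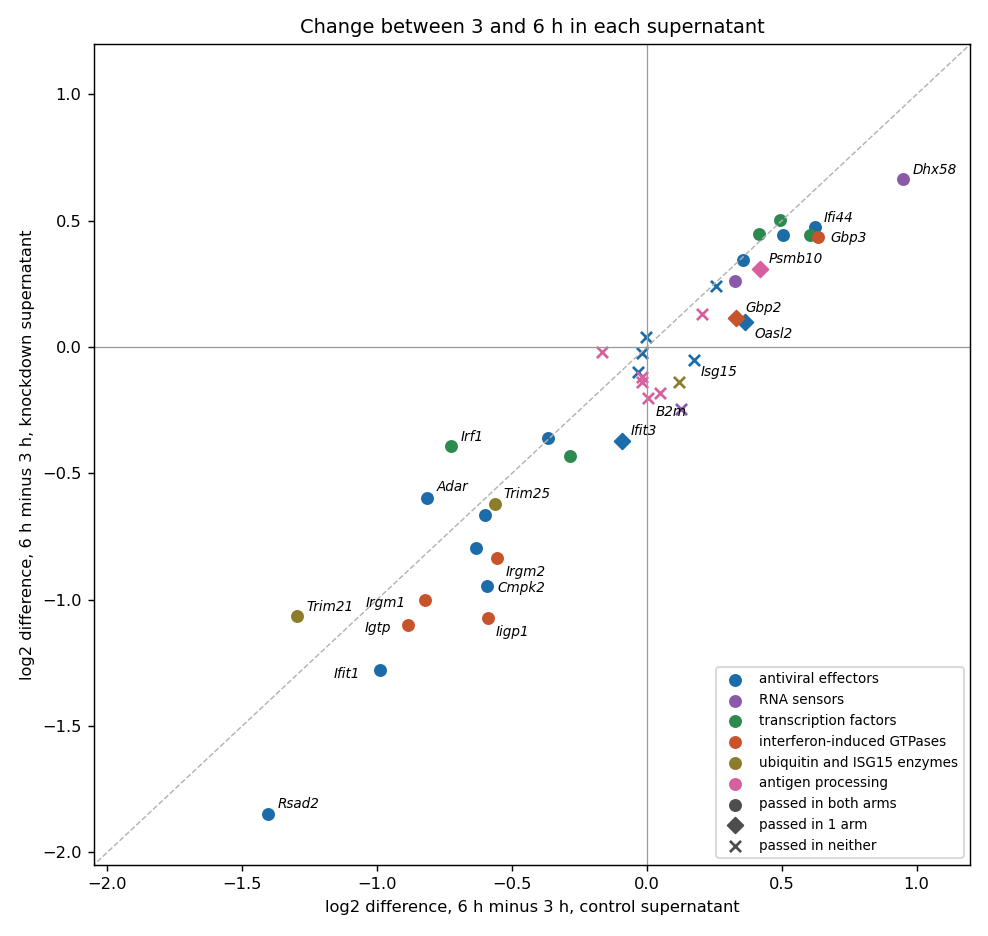
Log2 change from 3 to 6 h for each of the 41 genes with control (horizontal axis) and knockdown supernatant (vertical axis), coloured by role, with the marker showing in how many arms the change passed. Points below the dashed line of equal change, such as Rsad2 (-1.40 and -1.85), fell further or rose less with knockdown supernatant.

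Among the 17 antiviral effectors, Rsad2 (viperin, an enzyme that makes a chain-terminating nucleotide against viruses) had the largest fall with time and the only difference between supernatants that passed. At 3 h its control arrays read 3.03 and 2.93 and its knockdown arrays 3.53 and 3.49. At 6 h the controls read 1.56 and 1.60 and the knockdowns 1.69 and 1.64. The knockdown arrays lay above the controls at both times, and the gap was wider at 3 h. The difference was 0.53 ± 0.065 at 3 h (adjusted p = 0.065), 0.09 ± 0.065 at 6 h (adjusted p = 0.496) and 0.31 ± 0.046 in the mean (1.24-fold, adjusted p = 0.031). Its change with time was -1.40 ± 0.065 with control and -1.85 ± 0.065 with knockdown supernatant, to 0.38 and 0.28 of the 3 h signal (adjusted p = 1.2e-04 and 1.1e-04). The mean difference stayed between 0.28 and 0.33 when each array was left out in turn but passed only without control replicate 2 at 6 h, with an adjusted p just above the threshold without control replicate 1 at 6 h and of 0.081 to 0.137 without each of the other 6 arrays. It did not pass with unscaled signals (adjusted p = 0.443) or with dim probes kept (0.204), while the 3 h difference passed in 4 of the 21 alternatives.

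Cmpk2, a nucleotide kinase encoded beside Rsad2, followed a like course. Its 3 h controls read 1.31 and 1.23 and its knockdowns 1.68 and 1.71, and at 6 h the controls read 0.62 and 0.73 and the knockdowns 0.67 and 0.83. The groups did not overlap at 3 h and overlapped at 6 h. The difference was 0.43 ± 0.083 at 3 h (adjusted p = 0.149) and 0.07 ± 0.083 at 6 h (adjusted p = 0.653), and the fall with time was 0.59 on the log2 scale with control and 0.95 with knockdown supernatant. The fall with control supernatant did not pass with unscaled signals. A second, dimmer Cmpk2 probe gave 0.39 at 3 h and 0.10 at 6 h.

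Ifit1, which binds viral RNA ends, read 3.90 and 3.88 in the 3 h controls and 4.14 and 4.23 in the 3 h knockdowns. At 6 h the controls read 3.01 and 2.79 and the knockdowns 2.88 and 2.93. The knockdown arrays lay above the controls at 3 h and between them at 6 h. The difference was 0.30 ± 0.090 (adjusted p = 0.335) and then 0.00 ± 0.090 (adjusted p = 0.985), and Ifit1 fell with time by 0.99 and 1.28 on the log2 scale, to 0.50 and 0.41 of its 3 h signal. Its relatives did not all move alike: Ifit2 fell by 0.63 and 0.80, while Ifit3 measured -0.09 with control supernatant (adjusted p = 0.282) and fell by 0.37 with knockdown supernatant.

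Ifi44, an interferon-induced cytoplasmic protein, went the other way. Its 3 h controls read 3.63 and 3.44 and its 3 h knockdowns 3.55 and 3.76, and at 6 h the controls read 4.10 and 4.22 and the knockdowns 4.08 and 4.17. The supernatants overlapped at both times, and every 6 h array lay above every 3 h array. It rose by 0.62 ± 0.109 with control and 0.47 ± 0.109 with knockdown supernatant, and the latter did not pass without knockdown replicate 1 at 3 h, or without either knockdown array at 6 h. Zbp1, a sensor of Z-form nucleic acids, rose by 0.50 and 0.44, and Oas1a and Oasl2, of the family that makes or resembles the activator of RNase L, measured 0.36 and 0.35, and 0.37 and 0.10, of which the last did not pass (adjusted p = 0.324). The Oas1a and Oasl2 rises with control supernatant did not pass without control replicate 1 at 3 h, nor that of Oas1a without control replicate 1 at 6 h. The Oas1a rise with knockdown supernatant did not pass without knockdown replicate 1 at 3 h or without either knockdown array at 6 h.

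Isg15, a ubiquitin-like protein that is attached to other proteins, had the brightest antiviral probe and passed in no comparison. Its arrays read 7.13 and 7.04 (control) and 7.18 and 7.22 (knockdown) at 3 h, and 7.36 and 7.16 (control) and 7.14 and 7.16 (knockdown) at 6 h. The supernatants did not overlap at 3 h and overlapped at 6 h. The difference was 0.12 ± 0.086 at 3 h (95% interval -0.10 to 0.33) and -0.11 ± 0.086 at 6 h (-0.32 to 0.10). A second Isg15 probe differed from it, with 0.24 at 3 h and 0.55 at 6 h.

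Of the other antiviral effectors, the kinase Eif2ak2 (PKR) fell by 0.37 and 0.36 with time and the ADP-ribosyltransferase Parp14 by 0.60 and 0.67. The RNA editor Adar fell by 0.81 and 0.60 on its brightest probe, but its second probe measured 1.54 and 1.55, and with its probes averaged Adar rose by 0.36 and 0.48, so its direction is uncertain. Adar's fall with knockdown supernatant also did not pass without knockdown replicate 2 at 3 h or knockdown replicate 1 at 6 h. Xaf1, the virus tether Bst2, the entry inhibitor Ifitm3 and Ifi35 passed in no comparison. On their brightest probes, time changes lay between -0.10 and 0.26 and supernatant differences between -0.04 and 0.08. A second, much dimmer Xaf1 probe measured -0.22 at 3 h and -0.26 at 6 h between supernatants, and 0.25 and 0.21 with time.

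Of the 3 RNA sensors, Dhx58 and Ddx58 rose with time. Dhx58 (LGP2), a regulator of the other sensors, read 0.87 and 0.73 in the 3 h controls and 0.72 and 0.99 in the 3 h knockdowns. The 6 h controls read 1.83 and 1.68 and the 6 h knockdowns 1.46 and 1.58. It rose by 0.95 ± 0.120 with control supernatant, to 1.93 times the 3 h signal, and by 0.66 ± 0.120 with knockdown supernatant (adjusted p = 0.002 and 0.008). The supernatants overlapped at 3 h, and both knockdown arrays lay below both controls at 6 h, where the difference was -0.24 ± 0.120 (adjusted p = 0.343).

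Ddx58 (RIG-I), which detects viral RNA ends, read 3.80 and 3.73 in the 3 h controls and 3.78 and 3.74 in the 3 h knockdowns. At 6 h its controls read 4.14 and 4.05 and its knockdowns 4.06 and 3.98. The 6 h arrays all lay above the 3 h arrays, and the supernatants overlapped at both times. It rose by 0.33 ± 0.069 and 0.26 ± 0.069, but the first did not pass without control replicate 2 at 3 h, and the second did not pass when any 1 of the 3 h arrays or of the 6 h knockdown arrays was left out. The third sensor, Ifih1 (MDA5), had 1 spot in a bright patch of a 6 h control array and passed in no comparison.

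The 5 transcription factors passed with time in both arms, 3 higher and 2 lower in each. Of all features, 16.3% rose and 23.6% fell with control supernatant, and 17.7% rose and 22.2% fell with knockdown supernatant. Irf1, which is itself induced early by interferon gamma, read 5.75 on the 1 control array left at 3 h after an outlier spot was dropped, and 5.54 and 5.63 in the 3 h knockdowns. At 6 h it read 5.05 and 5.01 in the controls and 5.19 and 5.19 in the knockdowns. It fell by 0.73 ± 0.081 with control supernatant, a value that rests on that 1 array at 3 h, and by 0.39 ± 0.066 with knockdown supernatant. The knockdown arrays lay above the controls at 6 h, with a difference of 0.16 ± 0.066 (adjusted p = 0.280). The fall with knockdown supernatant did not pass without knockdown replicate 2 at 3 h or without either knockdown array at 6 h.

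Stat2 and Irf9, parts of the complex that binds the ISRE, rose by 0.50 and 0.50, and by 0.42 and 0.45. Irf7, the factor that amplifies type I interferon production, rose by 0.61 and 0.44. Nlrc5, the activator of MHC class I genes, fell by 0.29 and 0.43, but its fall with control supernatant passed in only 7 of the 21 alternatives, without control replicate 1 at 6 h among them, and its fall with knockdown supernatant did not pass without knockdown replicate 2 at 3 h or knockdown replicate 1 at 6 h. A second, much dimmer Nlrc5 probe measured 0.44 and -0.18 with time, and 0.11 at 3 h and -0.52 at 6 h between supernatants. The change with control supernatant also had the opposite sign in 1 of the alternatives, so its direction is uncertain. None of the 5 passed between supernatants, with differences on their brightest probes from -0.17 to 0.19 at 3 h and from -0.12 to 0.16 at 6 h.

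The 6 interferon-induced GTPases split by family. The 4 immunity-related GTPases, which act on the vacuoles of intracellular pathogens, fell with time, and the guanylate-binding protein Gbp3 rose. Iigp1 read 1.87 and 1.78 in the 3 h controls, 2.39 and 2.43 in the 3 h knockdowns, 1.08 and 1.40 in the 6 h controls and 1.33 and 1.34 in the 6 h knockdowns. The knockdown arrays lay clearly above the controls at 3 h, and at 6 h between the control arrays. Its difference was 0.58 ± 0.113 at 3 h (adjusted p = 0.150), 0.10 ± 0.113 at 6 h (adjusted p = 0.670) and 0.34 ± 0.080 in the mean (adjusted p = 0.096), and the mean passed without control replicate 2 at 6 h (0.42), with the gene's probes averaged and with an intensity trend in the variance. Its fall was 0.59 with control and 1.07 with knockdown supernatant, of which the first did not pass without control replicate 1 at 3 h. A second Iigp1 probe gave 0.81 at 3 h and 0.12 at 6 h.

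Irgm1, a regulator of the family, read 3.60 and 3.65 in the 3 h controls and 3.95 and 4.03 in the 3 h knockdowns. Its 6 h controls read 2.70 and 2.91 and its 6 h knockdowns 2.95 and 3.03. The knockdown arrays lay above the controls at both times, by 0.37 ± 0.090 at 3 h (adjusted p = 0.230) and 0.19 ± 0.090 at 6 h (adjusted p = 0.322), and the mean of 0.28 ± 0.064 missed the threshold (adjusted p = 0.089) except without control replicate 2 at 6 h (0.33) and with an intensity trend in the variance. It fell with time by 0.82 and 1.00.

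Irgm2, another regulator, read 3.11 and 3.13 in the 3 h controls and 3.17 and 3.15 in the 3 h knockdowns. At 6 h it read 2.57 and 2.55 in the controls and 2.37 and 2.28 in the knockdowns. The knockdown arrays thus lay just above the controls at 3 h and below them at 6 h, by 0.04 ± 0.062 and -0.24 ± 0.062 (adjusted p = 0.911 and 0.133), and Irgm2 fell with time by 0.56 and 0.84. Igtp, the brightest of the 4, read 4.57 and 4.59 in the 3 h controls, 4.70 and 4.82 in the 3 h knockdowns, 3.73 and 3.65 in the 6 h controls and 3.65 and 3.67 in the 6 h knockdowns. The 6 h arrays all lay far below the 3 h arrays, with falls of 0.89 ± 0.069 and 1.10 ± 0.069.

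Gbp3 read 2.78 and 2.71 in the 3 h controls and 2.88 on both 3 h knockdown arrays. The levels were 3.40 and 3.36 in the 6 h controls and 3.37 and 3.27 in the 6 h knockdowns. All 6 h arrays lay above all 3 h arrays, and it rose by 0.64 ± 0.065 and 0.44 ± 0.065. Gbp2 measured 0.33 with time in control supernatant, which did not pass without control replicate 2 at 3 h, and 0.12 with knockdown supernatant (adjusted p = 0.199). Between supernatants Gbp2 measured 0.31 ± 0.064 at 3 h (adjusted p = 0.160), with the knockdown arrays above the controls at both times.

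Of the enzymes that act on ubiquitin and Isg15, the ubiquitin ligases Trim21 and Trim25 fell with time. Trim21, an antibody receptor inside cells, read 0.90 and 0.89 in the 3 h controls and 0.86 and 0.96 in the 3 h knockdowns. At 6 h it read -0.71 and -0.10 in the controls and -0.14 and -0.17 in the knockdowns. The 6 h controls differed more from each other than those of any other gene here (SD 0.43), with both knockdown arrays between them. It fell by 1.30 ± 0.190 and 1.07 ± 0.190, and its supernatant difference at 6 h, 0.25 ± 0.190 (adjusted p = 0.504), became 0.55 and passed without control replicate 2 at 6 h (adjusted p = 0.025).

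Trim25, which activates RIG-I, read 5.41 and 5.35 in the 3 h controls and 5.36 and 5.49 in the 3 h knockdowns. At 6 h it read 4.91 and 4.72 in the controls and 4.79 and 4.82 in the knockdowns. The supernatants overlapped at both times, and Trim25 fell by 0.56 ± 0.090 and 0.62 ± 0.090. Usp18, the protease that removes Isg15 and dampens the type I receptor, passed in no comparison, with 0.12 and -0.14 with time and 0.09 and -0.17 between supernatants.

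Of the 7 antigen processing genes, 1 passed with time in control supernatant, higher, and 0 in knockdown supernatant. Of all features, 16.3% rose and 23.6% fell with control supernatant, and 17.7% rose and 22.2% fell with knockdown supernatant. Their median difference between supernatants was -0.02 at 3 h and -0.13 at 6 h on the log2 scale. Between supernatants 0 passed in limma. The shares of all features were 0.225% higher and 0.0194% lower at 3 h, and 1.6% and 0.698% at 6 h. An unadjusted p under 0.05 was found for 0 at 3 h, against 4.96% of all features higher and 5.6% lower. At 6 h it was found for 2, both lower (Psmb8 and Psmb9), against 11.5% higher and 7.84% lower. The 95% intervals of the 7 genes' differences ran from -0.33 to 0.33 at 3 h and from -0.44 to 0.24 at 6 h. B2m, the invariant chain of MHC class I, read 7.99 and 7.90 in the 3 h controls and 8.02 and 8.03 in the 3 h knockdowns. At 6 h it read 8.11 and 7.88 in the controls and 7.91 and 7.78 in the knockdowns. The supernatants were separate at 3 h and overlapped at 6 h, with differences of 0.08 ± 0.099 and -0.15 ± 0.099 (adjusted p = 0.871 and 0.455).

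Psmb8 and Psmb9, catalytic subunits of the immunoproteasome, had the lowest mean differences between supernatants. Psmb8 read 3.24 and 3.14 in the 3 h controls, 3.20 and 3.14 in the 3 h knockdowns, 3.21 and 3.17 in the 6 h controls and 3.06 and 2.87 in the 6 h knockdowns. Psmb9 read 3.46 and 3.45 in the 3 h controls, 3.36 and 3.42 in the 3 h knockdowns, 3.50 and 3.37 in the 6 h controls and 3.21 and 3.29 in the 6 h knockdowns. For both genes the 6 h knockdown arrays lay below every other array. The differences at 6 h were -0.23 ± 0.085 and -0.18 ± 0.072 (adjusted p = 0.234 and 0.252), and neither gene passed with time.

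The third immunoproteasome subunit, Psmb10, rose by 0.42 ± 0.107 with control supernatant (adjusted p = 0.026), a call that did not hold without either control array at 3 h or without control replicate 1 at 6 h, and measured 0.31 with knockdown supernatant (adjusted p = 0.066). The peptide transporter subunits Tap1 and Tap2 and the loading factor Tapbp passed in no comparison, with time changes from -0.17 to 0.21.

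**Figure D3:**
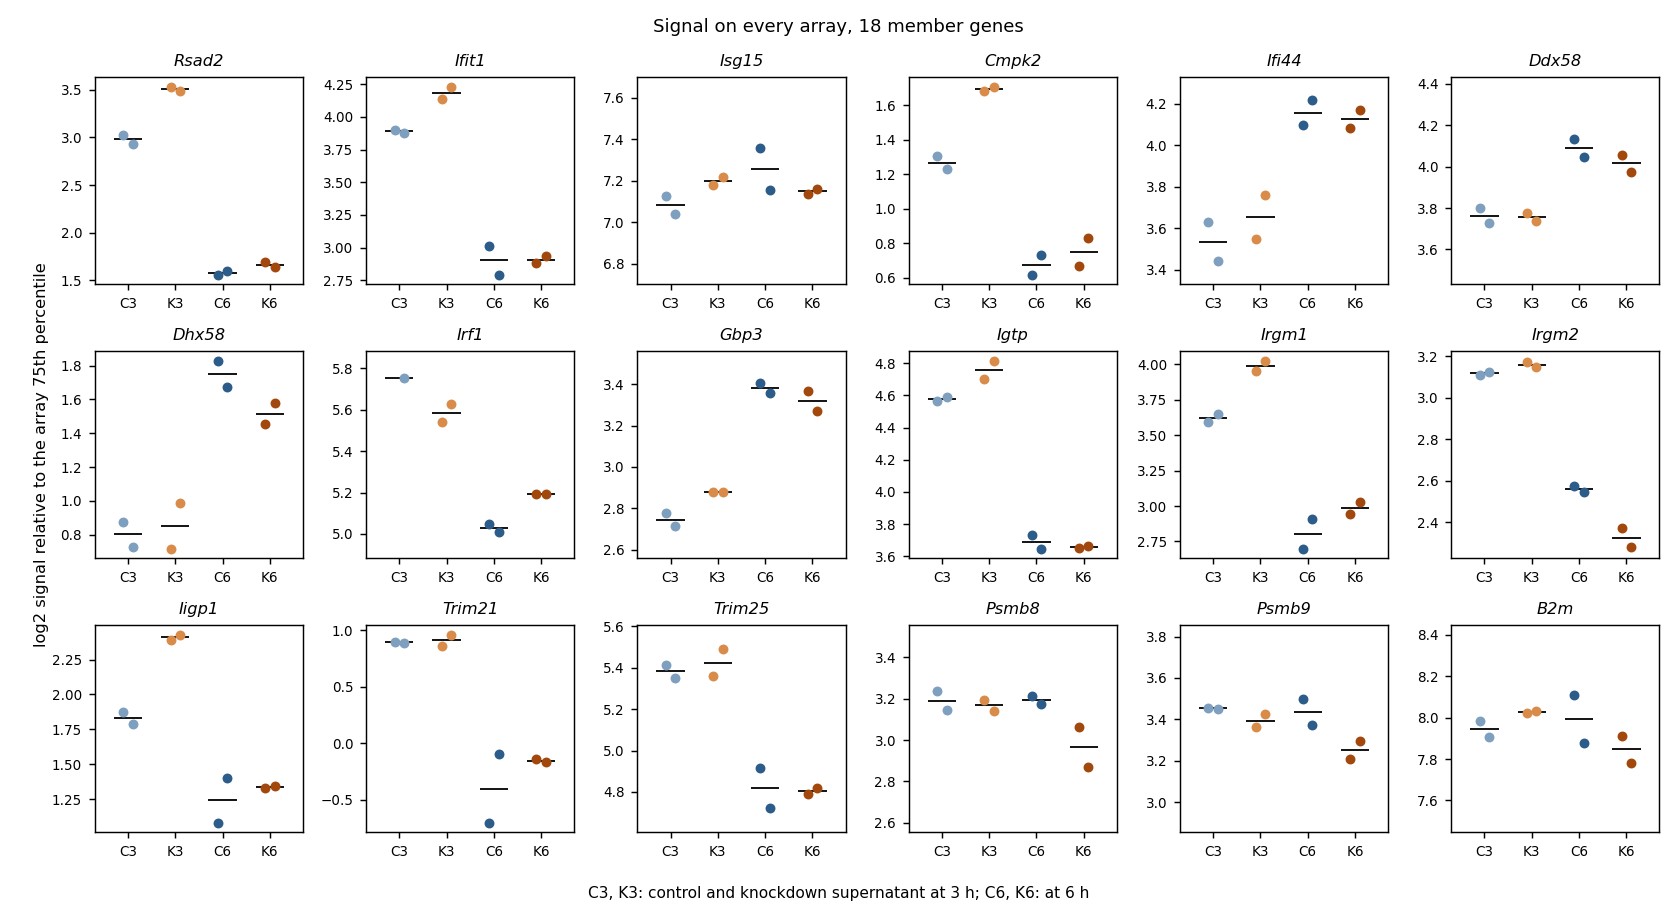
Log2 signal relative to the array's 75th percentile on every array for 18 of the 41 genes (points), with the group mean (line), for control (C) and knockdown (K) supernatant at 3 and 6 h. Each panel has its own axis of at least 1 log2 unit, and Irf1 has 1 array in the 3 h control group. Rsad2, Cmpk2 and Iigp1 show the widest gap between supernatants at 3 h, and Isg15, Psmb8, Psmb9 and B2m stay within 0.5 units on all arrays.

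Other genes of the interferon pathway, 133 in a list that leaves these members out, were read the same way, and 114 were tested. Between supernatants, 2 passed at 3 h, 4 at 6 h and 7 in the mean of both times, all higher with knockdown supernatant, where 0.225%, 1.6% and 2.16% of all features tested were higher. With time, 21 rose and 20 fell in control supernatant, and 21 rose and 28 fell in knockdown supernatant. Of all features, 16.3% rose and 23.6% fell in control supernatant, and 17.7% rose and 22.2% fell in knockdown supernatant. At the top of the pathway, the interferon beta gene Ifnb1 was well above background on 1 of 8 arrays and was not tested, and interferon gamma, Ifng, was so on none. Ifna2, an interferon alpha gene, and Ifnl3, an interferon lambda gene, were tested and did not pass, with mean differences over both times of -0.27 ± 0.088 (adjusted p = 0.178, unadjusted p = 0.023) and 0.06 ± 0.054 (adjusted p = 0.595). The receptor genes Ifnar1, Ifnar2, Ifngr1 and Ifngr2 were measured on all 8 arrays. Ifnar1 differed by -0.10 ± 0.127 at 3 h and 0.13 ± 0.127 at 6 h, Ifnar2 by 0.02 ± 0.086 and -0.02 ± 0.086, and Ifngr1 by -0.10 ± 0.076 and 0.02 ± 0.076, and none passed. Ifngr2 differed by 0.00 ± 0.080 at 3 h and 0.33 ± 0.080 at 6 h (adjusted p = 0.116), where its knockdown arrays (3.14 and 3.17) lay above its controls (2.75 and 2.91), and it rose with time by 0.39 with knockdown supernatant.

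The 7 that passed between supernatants include feedback inhibitors that many cytokines induce. Socs3, an inhibitor of Janus kinases and of cytokine receptors, read 3.75 and 3.64 in the 3 h controls, 4.88 and 5.01 in the 3 h knockdowns, 3.31 and 3.35 in the 6 h controls and 4.37 and 4.48 in the 6 h knockdowns. Cish, a target of STAT5 and a relative of Socs3, read -1.69 and -1.71, then -0.50 and -0.55, at 3 h and -1.12 and -1.08, then -0.49 and -0.47, at 6 h, controls first. Both genes kept the knockdown arrays above the controls at both times, with mean differences of 1.17 ± 0.058 and 0.90 ± 0.041 (adjusted p = 0.002 for each). Jak2, the kinase of the interferon gamma receptor and of many other receptors, measured 0.35 ± 0.062 in the mean, at the threshold (adjusted p = 0.050).

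The others were interferon-stimulated genes that are no members of the set. Cxcl10, a chemokine for T cells, read 4.38 and 4.29 in the 3 h controls, 5.01 and 5.21 in the 3 h knockdowns, 3.93 and 3.63 in the 6 h controls and 4.57 and 4.48 in the 6 h knockdowns, a mean difference of 0.76 ± 0.087 (adjusted p = 0.014). Ifi204, a DNA-binding protein, read 5.96 and 5.88, then 6.44 and 6.42, at 3 h and 5.68 and 5.84, then 6.37 and 6.38, at 6 h, controls first, a mean difference of 0.56 ± 0.054 (adjusted p = 0.009). Its relative Mndal differed by 0.38 ± 0.051 and Slfn2, a regulator of T cell quiescence, by 0.48 ± 0.075. For these 4 genes the difference at 6 h minus that at 3 h lay between -0.13 and 0.11. Among the members, Rsad2, Cmpk2 and Iigp1 measured 0.43 to 0.58 at 3 h and 0.07 to 0.10 at 6 h. Irgm1, also among the 4 largest mean differences, measured 0.37 and 0.19. Outside the set the effects were not all steady, since that of Cish was lower by 0.55 at 6 h than at 3 h. No difference between times passed a test for any of these genes. None of the 9 tested receptors and kinases but Jak2, none of the 13 sensing adaptors, kinases and IRFs, and none of the 27 other antigen presentation genes passed between supernatants. At an unadjusted p under 0.05 in the mean, 6 of the 13 were higher and 2 lower, and 1 of the 27 higher and 1 lower. Of all features, 10.5% were higher and 9.17% lower by that rule.

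**Figure D4:**
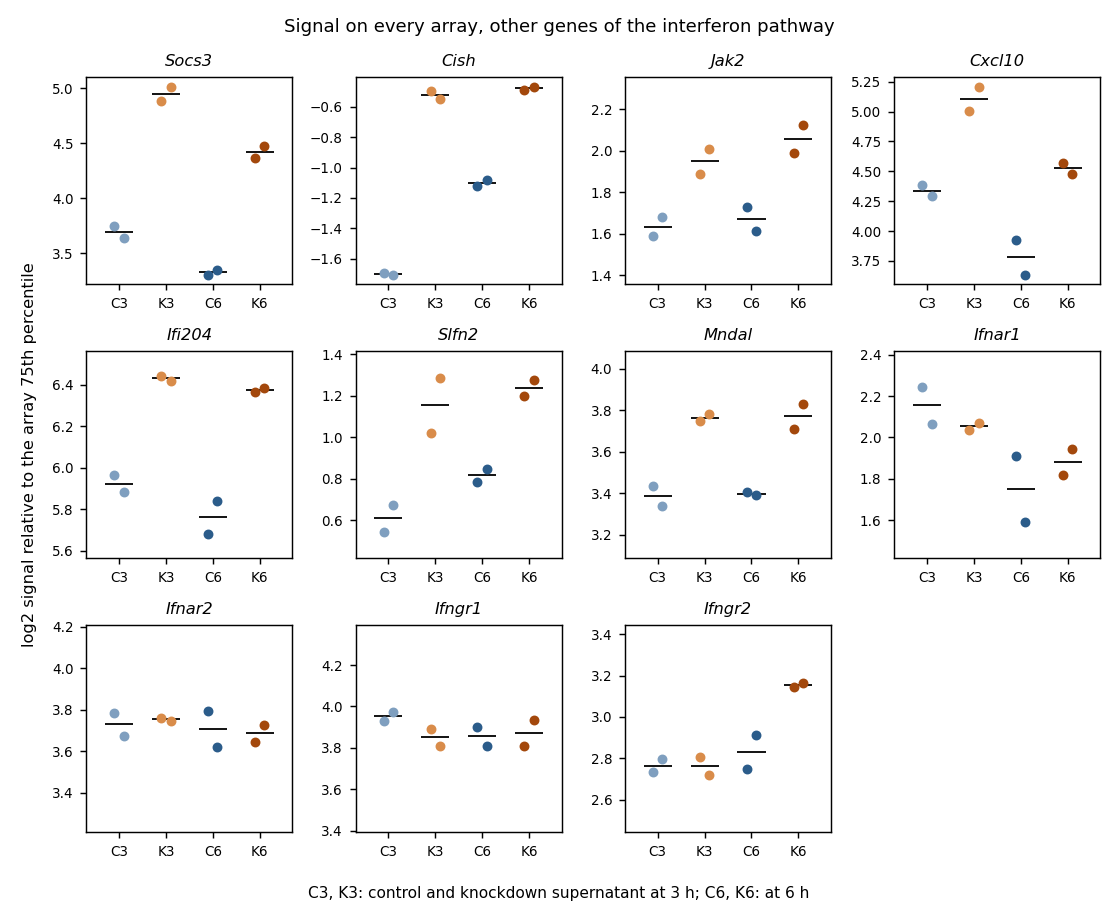
Log2 signal on every array (points) and group mean (line) for 7 pathway genes outside the set that passed between supernatants and for the 4 receptor genes, for control (C) and knockdown (K) supernatant at 3 and 6 h, each panel with its own axis. In Socs3, Cish, Cxcl10, Ifi204, Slfn2, Mndal and Jak2 both knockdown arrays lie above both controls at each time, whereas in Ifnar1, Ifnar2 and Ifngr1 they do not.

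Of the cell type markers tested, Cd14 of the 7 in the macrophage and leukocyte list was higher with knockdown supernatant in the mean (0.47, adjusted p = 0.017), Plin4 of the 10 in the adipocyte list was lower (-0.53, adjusted p = 0.012), and none of the 12 in the fibroblast list or the 5 in the endothelial and muscle list passed. Plin4 was also lower at 6 h alone (-0.68, adjusted p = 0.022). The summed signal of the macrophage and leukocyte list, in units of the 75th percentile, was 149 to 161 in the 3 h controls, 152 to 161 in the 3 h knockdowns, 114 to 141 in the 6 h controls and 125 to 132 in the 6 h knockdowns. Their part in the differences above was not tested, and in bulk RNA fewer cells of a type and less RNA per cell cannot be told apart.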

How the data were processed

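Total RNA (0.1 ug) was labelled with Cy3 and hybridised to 1-colour Agilent arrays, per the labels' protocols. The deposited spot intensity (background-subtracted processed signal) and the flags for outliers and for signal well above background (score columns) come from Agilent Feature Extraction 10.7.3.1, per the file headers and the submitters' processing notes. The series' deposited value table holds log2 values that match the processed signals on the log2 scale after subtracting a constant for each array, and served as an alternative. Outlier spots were left out, log2 signals were set relative to each array's 75th percentile, spots of a probe were averaged, and a probe was kept if well above background on each array of any 1 group, with the brightest probe per gene. Of 55681 probes, 27229 were named by RefSeq transcript and 20 by symbol or synonym. The 4 group means were fitted with limma 3.58.1 (R 4.3.3), without a replicate block, and adjusted over all features. The fit was tested on simulated data.

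Members and lists were chosen with earlier results of these data known. Values on every array are given for members that passed between supernatants, the 4 largest mean differences and the 3 largest changes with time in each direction, and the brightest member of each role. Alternatives covered scaling, background correction, filters, probes, weights, variance model, bright patches, the replicate block and leaving out each array. Deviations of same-numbered arrays from their group means correlated at -0.05 to 0.09. These correlations cannot show whether same-numbered arrays shared a culture or a batch of supernatant, which nothing states.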

Additional observations from a re-analysis of the deposited data

How the results depend on the processing

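Over the 21 alternatives tried, the supernatant counts were few enough for single choices to move them. The count at 3 h was 0 and became 1 with normexp background correction and with probes required to be well above background on all arrays, 2 with array weights, and 4 with an intensity trend in the variance. The count in the mean of both times was 1 and became 0 with no scaling, with no filter on dim probes and with the replicate block, 2 with the mean of a gene's probes, and 6 with an intensity trend. Leaving out each array in turn gave 0 to 4 in the mean of both times (4 without control replicate 2 at 6 h: Rsad2, Irgm1, Iigp1 and Trim21), 0 to 1 at 6 h (Trim21, without the same array) and 0 at 3 h. The replicate block changed no other count by over 1.5 times. The counts with time, 27 and 25, became 15 and 15 with no scaling and stayed within 1.5 times under the others. Rsad2's mean difference kept its sign under all 21 alternatives (0.27 to 0.44). Trim21, which did not pass with all arrays, ranged from -0.06 to 0.55 at 6 h and from -0.02 to 0.29 in the mean, both lowest without control replicate 1 at 6 h. Among the time calls only Adar's reversed while passing, with its probes averaged (0.36 and 0.48). With 2 arrays a group, the number of arrays limits the precision.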
